A study of Mus musculus with 6 samples.

Results

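The 10 genes of colonic goblet cell secretion and fate were chosen by name and looked up by symbol in the deposited expression table. Of the 10 symbols, 9 had a row among the 30777 genes of the table: Atoh1, Spdef, Agr2, Zg16, Tff3, Spink4, Clca1, Fcgbp and Retnlb. St6galnac1, a sialyltransferase that caps mucin glycans, was not analysed here. All 9 genes passed the filter on low counts, as did 20101 genes in all.

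The RNA came from colons of BALB/c mice, a common inbred strain, and was sequenced as 6 libraries. In 3 of them the mice had received 5-fluorouracil (5-Fu), a chemotherapy drug that harms dividing cells, and in the other 3 they had received 5-fluorouracil plus berberine, a plant alkaloid (5-Fu+BBR). All 6 libraries thus shared 5-fluorouracil, and colon without it was not analysed here, so the values compare berberine on top of 5-Fu with 5-Fu alone. The labels give no dose, time, age or sex, and do not say whether each library is 1 animal. The p-values therefore cover the spread of these libraries alone, which may be technical.

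Goblet cells are the mucus-making cells of the intestinal lining. The transcription factor ATOH1 commits crypt progenitors to the secretory lineages, where Notch signalling, acting through HES1, holds it back, and SPDEF drives goblet cell maturation further on. Mature goblet cells fold the mucin MUC2 with the help of AGR2, a protein disulfide isomerase of the endoplasmic reticulum. They release MUC2 together with FCGBP, CLCA1, ZG16 and TFF3, which are components of colonic mucus. In whole tissue, fewer goblet cells and less RNA per goblet cell cannot be told apart.

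Promoter sequences from RefSeq on GRCm38.p6 were on hand for 4 of the 10 named genes: both transcription factors, Atoh1 and Spdef, and the effectors Agr2 and Fcgbp. They are shown because ATOH1 belongs to the basic helix-loop-helix factors, which bind E-boxes. Each runs 5′ to 3′ on the strand of its gene, from 250 bases before the start of the gene to 50 bases after it, and capitals mark each E-box CANNTG, a motif that reads the same on both strands.
Atoh1, chr6:64728875-64729174, plus strand: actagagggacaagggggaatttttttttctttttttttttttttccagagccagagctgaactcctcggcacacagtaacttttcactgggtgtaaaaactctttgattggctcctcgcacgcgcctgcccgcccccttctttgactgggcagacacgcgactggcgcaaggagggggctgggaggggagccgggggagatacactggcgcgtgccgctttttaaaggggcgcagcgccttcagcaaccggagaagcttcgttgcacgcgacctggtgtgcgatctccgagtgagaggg
Spdef, chr17:27728902-27729201, minus strand: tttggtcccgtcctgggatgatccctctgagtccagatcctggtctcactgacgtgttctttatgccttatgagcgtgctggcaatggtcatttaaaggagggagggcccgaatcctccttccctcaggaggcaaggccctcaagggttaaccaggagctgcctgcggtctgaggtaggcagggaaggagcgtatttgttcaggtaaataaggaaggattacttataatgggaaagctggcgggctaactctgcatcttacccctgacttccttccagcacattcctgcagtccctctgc
Agr2, chr12:35992675-35992974, plus strand: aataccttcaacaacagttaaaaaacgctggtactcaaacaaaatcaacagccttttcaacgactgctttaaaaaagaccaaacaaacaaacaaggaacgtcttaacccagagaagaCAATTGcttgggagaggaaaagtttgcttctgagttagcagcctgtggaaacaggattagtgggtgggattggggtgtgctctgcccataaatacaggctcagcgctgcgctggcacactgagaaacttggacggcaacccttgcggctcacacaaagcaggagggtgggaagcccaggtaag
Fcgbp, chr7:28070986-28071285, plus strand: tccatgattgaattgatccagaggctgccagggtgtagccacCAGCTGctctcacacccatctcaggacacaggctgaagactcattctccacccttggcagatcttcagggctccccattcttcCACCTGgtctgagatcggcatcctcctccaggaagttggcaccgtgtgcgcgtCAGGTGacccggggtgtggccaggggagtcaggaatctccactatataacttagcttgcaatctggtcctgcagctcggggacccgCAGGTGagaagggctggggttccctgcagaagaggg

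The 4 windows differed in their E-boxes. Fcgbp had 4 of them, which began 208, 125 and 72 bases before the start and at base 15 after it, and the first was CAGCTG. The window of Agr2 had 1, of the form CAATTG, beginning 133 bases before the start. Atoh1 and Spdef had 0. Over all 32851 RefSeq windows of this length the share with CANNTG was 72.3%, and that with CAGCTG, which is one form of CANNTG, was 16.3%. The core GGAT, on either strand, was found 5 times in the Spdef window, 2 times each in those of Agr2 and Fcgbp and 0 times in that of Atoh1, and 79.6% of all windows held it. Atoh1 had the most CpG dinucleotides, 20 against 7 in each of the other 3. These matches describe the letters of the windows, and no binding was measured.

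The 9 genes spanned a wide range of levels. On the FPKM scale (fragments per kilobase, scaled to depth), which allows genes to be compared, the means over the 6 libraries were 2243 for Zg16, 1269 for Tff3, 581 for Spink4, 549.9 for Agr2, 384 for Clca1, 214 for Fcgbp, 60.7 for Retnlb, 23.1 for Atoh1 and 14.2 for Spdef. Zg16 and Tff3 ranked 13th and 21st among the 20101 genes tested. Neighbours in this order mostly overlapped between libraries. Spink4 lay between 468 and 700.4 FPKM and Agr2 between 446 and 611 FPKM, while Clca1, between 110.3 and 752 FPKM, covered the ranges of both and of Fcgbp. The 2 transcription factors did not overlap: Atoh1 was at 19.2 FPKM or more and Spdef at 17.0 FPKM or less in every library. Muc2, the gel-forming mucin that defines the cell type, was at 313 FPKM on average, so goblet cell RNA was abundant in these libraries.

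The comparison asks how goblet cell genes differ with berberine on top of 5-fluorouracil. Of the 9 genes, Clca1 had the widest difference, with a mean 2.85-fold higher in 5-Fu+BBR, and Atoh1 was 1.33-fold higher. For both, each of the 3 libraries of 5-Fu+BBR lay above each of the 3 of 5-Fu. Neither passed an adjusted p of 0.05 over all genes with edgeR's quasi-likelihood test, and the other 7 genes overlapped between the groups.

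By that test 0 of the 9 genes passed, where 0.0746% of all genes tested did (0.0597% with higher and 0.0149% with lower levels under 5-Fu+BBR). At an unadjusted p under 0.05 there were 2, Clca1 and Atoh1, both higher, beside 15.6% of all genes (9.48% higher and 6.08% lower). The groups did not overlap for the same 2 genes, beside 21.9% of all genes (12.3% higher and 9.68% lower). Limma-voom and limma on log2 FPKM also passed 0 of the 9, and DESeq2 passed 1, Clca1 (adjusted p = 0.000337), where it called 5.76% of all genes. Log2 fold changes, 5-Fu+BBR minus 5-Fu, were positive for 8 of the 9 genes and for 50.7% of all genes, and their median was 0.33 beside 0.0051 over all genes. With libraries scaled to epithelial markers instead, which moves the median of all genes to 0.13, all 9 were positive and their median was 0.47. Without 5-Fu replicate 2 there were 7 positive and 2 negative values, with a median of 0.18.

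**Figure D1:**
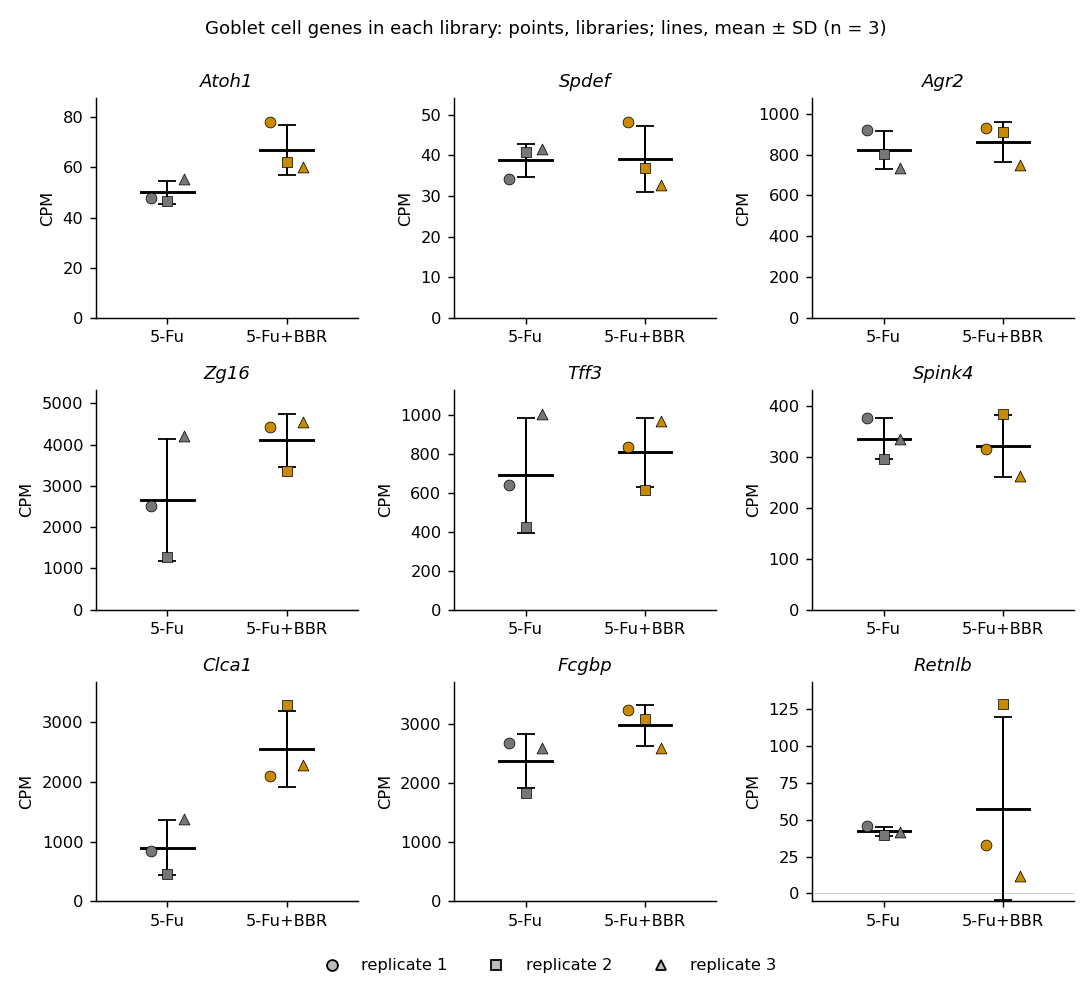
Levels of the 9 goblet cell genes in CPM, counts scaled to library size (vertical axes), in the libraries of 5-Fu (grey) and 5-Fu+BBR (orange), with the mean ± SD of 3 libraries per group. The orange points of Clca1 and Atoh1 all lie above the grey ones, and Retnlb of 5-Fu+BBR spreads from 11.6 to 128 CPM, so that its SD bar reaches below 0.

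Atoh1 (ENSMUSG00000073043, chromosome 6, 64729125 to 64731245 of GRCm38, plus strand) gave 48.0, 46.8 and 55.4 CPM for 5-Fu, replicates 1 to 3 in this order as in all such lists, against 78.2, 62.1 and 60.0 CPM for 5-Fu+BBR. CPM are counts relative to library size. The 5-Fu libraries were close together, and the highest of them was only a little below the lowest of 5-Fu+BBR. The group means were 50.0 ± 4.67 and 66.8 ± 9.98 CPM (SD, n = 3), and the log2 fold change was 0.42 ± 0.13 (SE; 95% interval 0.11 to 0.72; adjusted p = 0.215 with edgeR). Relative to the mean log2 CPM of 16 epithelial markers, Atoh1 differed by 0.57 on the log2 scale between the groups, which again did not overlap (exact permutation test, two-sided, p = 0.1, the smallest that 3 against 3 allows; p = 0.367 after adjustment over 22 such values).

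Spdef (ENSMUSG00000024215, chromosome 17, 27714352 to 27728953, minus strand), the factor that acts after ATOH1, was at 34.1, 40.8 and 41.4 CPM in 5-Fu and at 48.3, 36.8 and 32.6 CPM in 5-Fu+BBR. The 5-Fu+BBR libraries held both the highest and the lowest value of the 6. The log2 fold change was 0.016 ± 0.16, and its 95% interval reached from -0.36 to 0.39, which leaves room for a difference of about that size either way. Replicate 1 of 5-Fu+BBR was the highest library for both Atoh1 and Spdef.

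Other regulators of the secretory fate were centred near 0. Of the 20 genes of that list tested, 11 had positive and 9 negative log2 fold changes (14 and 6 when scaled to epithelial markers), and 0 passed with edgeR. At an unadjusted p under 0.05 there was 1, beside 15.6% of all genes tested. It was Hes1, the Notch effector that represses Atoh1. Hes1 was at 42.7 ± 5.87 against 56.3 ± 8.38 CPM, so its mean lay on the same side as that of Atoh1. Its log2 fold change was 0.40 ± 0.15 (adjusted p = 0.261 with edgeR). The groups did not overlap for 4 of the 20 genes, Hes1 among them. All 4 were higher in 5-Fu+BBR and 0 lower, beside 12.3% and 9.68% of all genes. The next by p, and the rest of these 4, were Cbfa2t3, a transcriptional corepressor, Sox9, a factor of crypt progenitors, and Notch2. Their log2 fold changes were 0.43, 0.28 and 0.31. Klf4, a factor of terminal goblet cell differentiation, was at 543 ± 69.9 against 591 ± 51.4 CPM. Foxa3 and Creb3l1, a factor of secretory cells, had log2 fold changes of -0.12 and 0.24.

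Agr2 (ENSMUSG00000020581, chromosome 12, 35992907 to 36004087, plus strand) was the steadiest of the 9. It was at 921, 806 and 737 CPM in 5-Fu and at 929, 910.1 and 748 CPM in 5-Fu+BBR. Its highest value was 1.26 times its lowest, and the groups covered nearly the same range. The log2 fold change was 0.07 ± 0.15 with a 95% interval from -0.27 to 0.41. Genes of protein folding and export, in which Agr2 works, were centred near 0. Of the 26 tested, 14 were positive and 12 negative (19 and 7 when scaled to epithelial markers), and the median of 0.03 lay between -0.03 and 0.08 when each library was left out. In all, 0 passed with edgeR. Beside 15.6% of all genes tested, 4 of the 26 had an unadjusted p under 0.05. These were Sdf2l1, a chaperone cofactor, and Ern2, the stress sensor IRE1β of mucus-making epithelia, with log2 fold changes of 0.29 and 0.38, and the stress sensor Atf6 and the translocon subunit Sec61b, with -0.33 and -0.29. Ern2 was at 49.8 ± 7.45 against 64.8 ± 9.01 CPM.

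Zg16 (ENSMUSG00000049350, chromosome 7, 127050156 to 127087286, minus strand) encodes a lectin of colonic mucus that binds the wall of Gram-positive bacteria. It was at 2507, 1274 and 4211 CPM in 5-Fu and at 4418, 3358 and 4538 CPM in 5-Fu+BBR. The 5-Fu libraries spread widely, with replicate 2 low and replicate 3 within the range of 5-Fu+BBR. The log2 fold change was 0.62 ± 0.40 (95% interval -0.31 to 1.56; adjusted p = 0.505 with edgeR). Without 5-Fu replicate 2 it was 0.29, and without 5-Fu replicate 3 it was 1.13.

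Tff3 (ENSMUSG00000024029, chromosome 17, 31125306 to 31129646, minus strand), the intestinal trefoil peptide that aids epithelial repair, had much the same order within 5-Fu. It was at 644, 423 and 1009 CPM in 5-Fu and at 839, 616 and 971 CPM in 5-Fu+BBR, so the highest library of all belonged to 5-Fu. The log2 fold change was 0.22 ± 0.32 (95% interval -0.52 to 0.97). The ratio of Tff3 to Zg16 was lower in each library of 5-Fu+BBR, with log2 values of -1.96, -1.59 and -2.06 in 5-Fu and -2.40, -2.45 and -2.22 in 5-Fu+BBR (exact permutation test, two-sided, p = 0.1, adjusted over the 22 values p = 0.367). Colonocyte markers followed a like order within 5-Fu: their list median relative to the 5-Fu mean was -0.03, -0.79 and 0.78 in 5-Fu and 0.09, 8.29e-05 and 0.58 in 5-Fu+BBR on the log2 scale, and the part of colonocytes in the values of Zg16 and Tff3 was not tested.

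Spink4 (ENSMUSG00000028415, chromosome 4, 40920052 to 40931395, plus strand), a Kazal-type peptide of goblet cells, was at 376, 296 and 336 CPM in 5-Fu and at 317, 386 and 263 CPM in 5-Fu+BBR. It was the only one of the 9 with a negative log2 fold change, -0.06 ± 0.17, and its 5-Fu values lay within the range of 5-Fu+BBR, with a 95% interval from -0.45 to 0.32. Fcgbp (ENSMUSG00000047730, chromosome 7, 28071236 to 28120862, plus strand), a large mucus protein that is linked to the MUC2 gel, was at 2688, 1845 and 2602 CPM in 5-Fu and at 3249, 3099.8 and 2598 CPM in 5-Fu+BBR. Only 5-Fu+BBR replicate 3 lay within the 5-Fu range. The log2 fold change of Fcgbp was 0.33 ± 0.19 (95% interval -0.11 to 0.76; adjusted p = 0.454 with edgeR). Relative to epithelial markers its log2 values were 2.02, 1.59 and 1.95 in 5-Fu and 2.32, 2.51 and 2.22 in 5-Fu+BBR, which do not overlap (exact permutation test, two-sided, p = 0.1, adjusted over the 22 values p = 0.367). Scaled to those markers, its log2 fold change was 0.47 ± 0.14 (unadjusted p = 0.00698, adjusted p = 0.189 with edgeR).

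Clca1 (ENSMUSG00000028255, chromosome 3, 145003817 to 145032776, minus strand) encodes a secreted metalloprotease that processes MUC2 and loosens the mucus layer. It was at 837, 465 and 1383 CPM in 5-Fu and at 2099.6, 3279 and 2287 CPM in 5-Fu+BBR. The lowest library of 5-Fu+BBR was well above the highest of 5-Fu. Means were 895 ± 462 and 2555 ± 634 CPM (SD, n = 3) and the log2 fold change was 1.51 ± 0.39 (95% interval 0.59 to 2.44; unadjusted p = 0.00593, adjusted p = 0.163 with edgeR). On the FPKM scale Clca1 made up 4.12%, 3.51% and 4.95% of the summed level of the 9 genes in 5-Fu and 7.34%, 12.7% and 7.94% in 5-Fu+BBR (exact permutation test, two-sided, p = 0.1, adjusted over the 22 values p = 0.367). Leaving out 1 library at a time gave log2 fold changes between 1.203 and 1.98.

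Set against Muc2, the mucin it acts on, Clca1 was also higher. The log2 ratio of Clca1 to Muc2 was -1.17, -2.29 and -0.99 in 5-Fu and -0.96, 0.29 and -0.0093 in 5-Fu+BBR. The groups did not overlap but nearly met, at 5-Fu replicate 3 and 5-Fu+BBR replicate 1 (exact permutation test, two-sided, p = 0.1, adjusted over the 22 values p = 0.367). Muc2 itself was at 1887, 2267 and 2744 CPM in 5-Fu and at 4094, 2679 and 2302 CPM in 5-Fu+BBR, with only 5-Fu+BBR replicate 1 outside the 5-Fu range. Its log2 fold change was 0.40 ± 0.25 (adjusted p = 0.488 with edgeR).

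Clca1 lies in a cluster of Clca genes on chromosome 3, and its relatives there were looked at after its values were seen. Of 7 relatives tested, 6 had negative log2 fold changes, and for all 6 the groups overlapped. Over all genes, 50.7% had positive values. Clca4a and Clca4b, genes of surface colonocytes, had log2 fold changes of -0.38 ± 0.46 and -1.16 ± 0.61. Clca4b was at 2626, 2143 and 2059 CPM in 5-Fu and at 2079, 475 and 507 CPM in 5-Fu+BBR, so its replicate 1 stayed within the 5-Fu range. Clca3b was at 634, 1409 and 595 against 1079, 559 and 468 CPM. Clca2 was the relative with a positive value (log2 fold change 1.87 ± 0.44), at a mean of only 0.34 ± 0.0042 against 1.25 ± 0.52 CPM. Its groups did not overlap, beside 12.3% of all genes in the same direction (unadjusted p = 0.00269, adjusted p = 0.139 with edgeR). The Clca genes are similar in sequence, so reads may have been split between them.

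**Figure D2:**
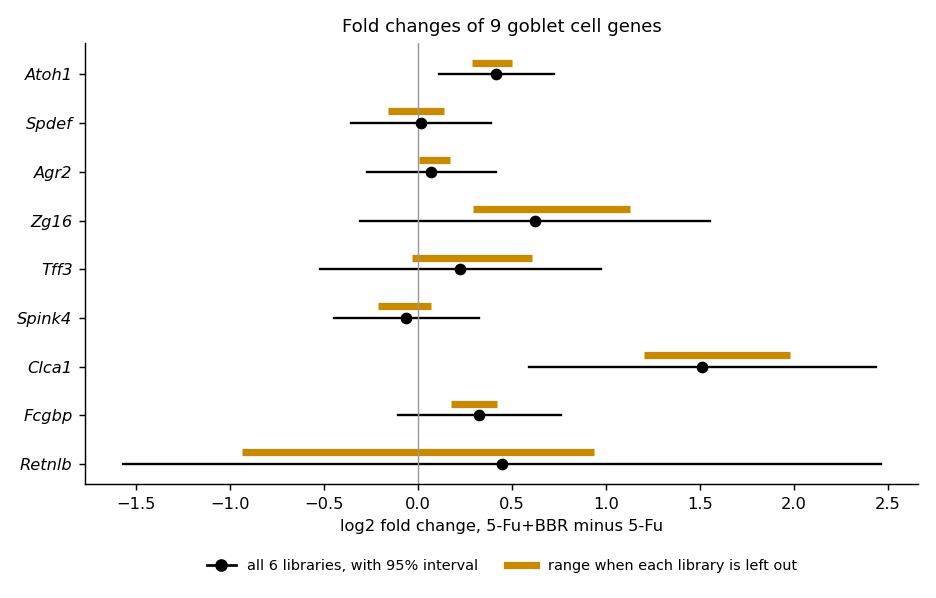
Log2 fold changes, 5-Fu+BBR minus 5-Fu (horizontal axis), of the 9 genes with all 6 libraries (points, with 95% intervals) and the range when each library in turn is left out (orange bars). The intervals of Clca1 (0.59 to 2.44) and Atoh1 (0.11 to 0.72), not adjusted for the number of genes tested, lie above 0, and those of the other 7 genes include it.

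Retnlb (ENSMUSG00000022650, chromosome 16, 48816856 to 48818892, plus strand) encodes RELMβ, a bactericidal goblet cell protein that is induced by type 2 cytokines and by the flora. It was nearly constant in 5-Fu, at 45.4, 39.4 and 41.7 CPM, and spread 11.1-fold in 5-Fu+BBR, at 32.5, 128 and 11.6 CPM. The 5-Fu+BBR libraries lay on both sides of 5-Fu, 2 below it and 1 above. The log2 fold change of 0.45 ± 0.82 (95% interval -1.57 to 2.46; adjusted p = 0.84 with edgeR) rested on replicate 2: without it the value was -0.94.

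Genes of host defence and of mast cells that were likewise high in 5-Fu+BBR replicate 2 were looked at after the value of Retnlb was seen. Ang4, an antimicrobial ribonuclease, was at 22.7 CPM in that library and between 0.254 and 1.18 CPM in the other 5. Itln1, a lectin that binds microbial glycans, was at 32.7 CPM there and between 1.17 and 2.20 CPM elsewhere. Mcpt1, a protease of mucosal mast cells, was at 21.9 CPM there and at 4.63 CPM or less elsewhere. The list of Paneth cell and small intestine markers, which includes Itln1, summed to 594 CPM there and to between 35.6 and 170 CPM elsewhere. Its median relative to the 5-Fu mean, on the log2 scale, was 1.07 there and 0.126 or less elsewhere. The part of this difference in the value of Retnlb was not tested. Among type 2 cytokines and their receptors, 10 of the 15 listed genes could be tested, and 0 passed with edgeR. At an unadjusted p under 0.05 there were 2, Il10ra and Il13ra2, both higher, beside 15.6% of all genes (9.48% higher). Il13 was too low to be tested. Il13ra1, a receptor chain for IL-13, was at 140.5 ± 11 against 174 ± 27.5 CPM, and Il10ra at 10.6 ± 2.41 against 18.1 ± 1.8 CPM (log2 fold changes 0.31 ± 0.14 and 0.78 ± 0.19).

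**Figure D3:**
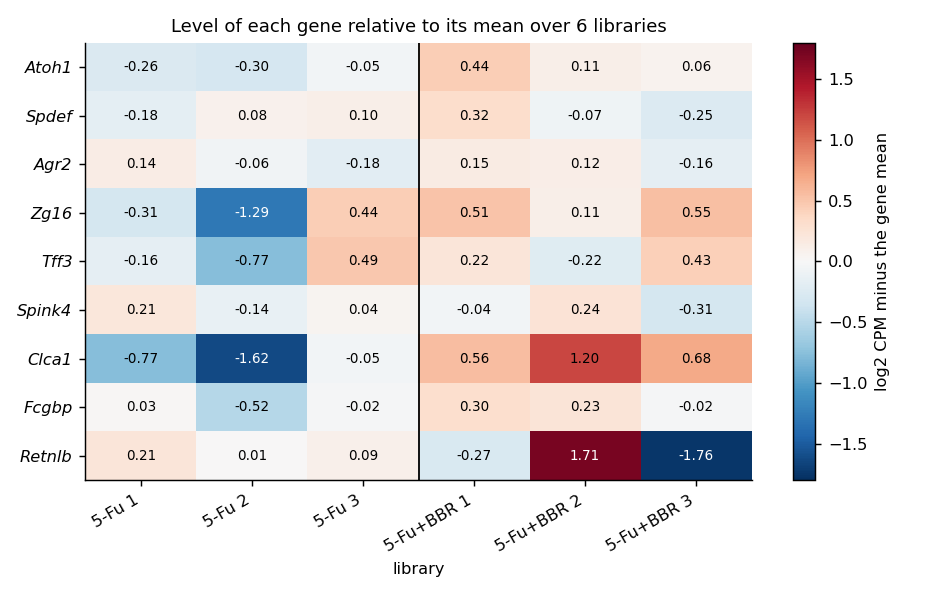
Log2 CPM of each of the 9 genes (rows) in each library (columns) minus the mean of the gene over the 6 libraries; the colour gives the printed value. Clca1, Zg16 and Tff3 are lowest in 5-Fu replicate 2, at -1.62, -1.29 and -0.77, while Retnlb is at 1.71 in 5-Fu+BBR replicate 2 and -1.76 in replicate 3.

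The 9 genes thus did not move as a block. The summed FPKM of the 9 was 4566, 3147 and 5774 in 5-Fu and 6151, 5914 and 6486 in 5-Fu+BBR. Zg16 made up between 28.9% and 47.4% of it in each library and Tff3 between 18.3% and 27.7%. Averaged over the 9 genes with equal weight, log2 CPM relative to the mean over the 6 libraries was -0.12, -0.51 and 0.10 in 5-Fu and 0.24, 0.38 and -0.09 in 5-Fu+BBR, so 5-Fu+BBR replicate 3 lay within the 5-Fu range. In 5-Fu+BBR replicate 3, Retnlb was at -1.76 and the rest of the 9 genes were between -0.31 and 0.68, so this mean leaned on Retnlb. The median of the 9 genes, relative to the 5-Fu mean, was 0.148 in that library and between -0.175 and 0.150 in 5-Fu. Relative to epithelial markers, the means of the 9 genes were -0.89, -1.17 and -0.70 in 5-Fu and -0.50, -0.10 and -0.60 in 5-Fu+BBR, which do not overlap. Fcgbp was the member closest to the average pattern, with a root mean square difference of 0.10 on the log2 scale over the 6 libraries. Retnlb was the farthest, at 0.93.

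Among 6778 other genes with a mean of at least 5 FPKM, those most like the average pattern by the same measure were Arl4a, Ctnnbip1, Cpq, Pgm5, Dpp7, C1qc, Rnaset2a, Apoe, C1qa and Ppp1r12a, with differences between 0.0905 and 0.133. None is a goblet cell product on the lists used here, and C1qa is on the macrophage list. The 10 were picked for their likeness, which therefore supports nothing further.

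Further goblet cell products had log2 fold changes of both signs. Of the 25 listed, 23 could be tested, and 16 had positive and 7 negative log2 fold changes with a median of 0.23. Without 5-Fu+BBR replicate 1 these were 13 and 10 with a median of 0.12. With edgeR 0 passed over all genes (2 without 5-Fu replicate 3). At an unadjusted p under 0.05 there were 6 higher and 2 lower, beside 9.48% and 6.08% of all genes. Klk1, a kallikrein protease, was at 270, 235 and 520.1 CPM in 5-Fu and at 736, 697 and 821 CPM in 5-Fu+BBR. Sval1, a secreted protein, was at 253, 249.7 and 457 against 569, 534 and 624 CPM. The 2 genes had a common order, with 5-Fu replicate 3 closest to 5-Fu+BBR, and log2 fold changes of 1.14 ± 0.29 and 0.85 ± 0.24 (adjusted p = 0.159 and 0.182 with edgeR). The potassium channel Kcnk6 and Lrrc26, an accessory subunit of the BK potassium channel, were at 68.4 ± 9.4 against 46.8 ± 6.3 CPM and 46.5 ± 2.83 against 32.0 ± 5.98 CPM. Both had no overlap between the groups, beside 9.68% of all genes in the same direction. Their log2 fold changes were -0.55 and -0.54 (adjusted p = 0.154 and 0.163 with edgeR).

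**Figure D4:**
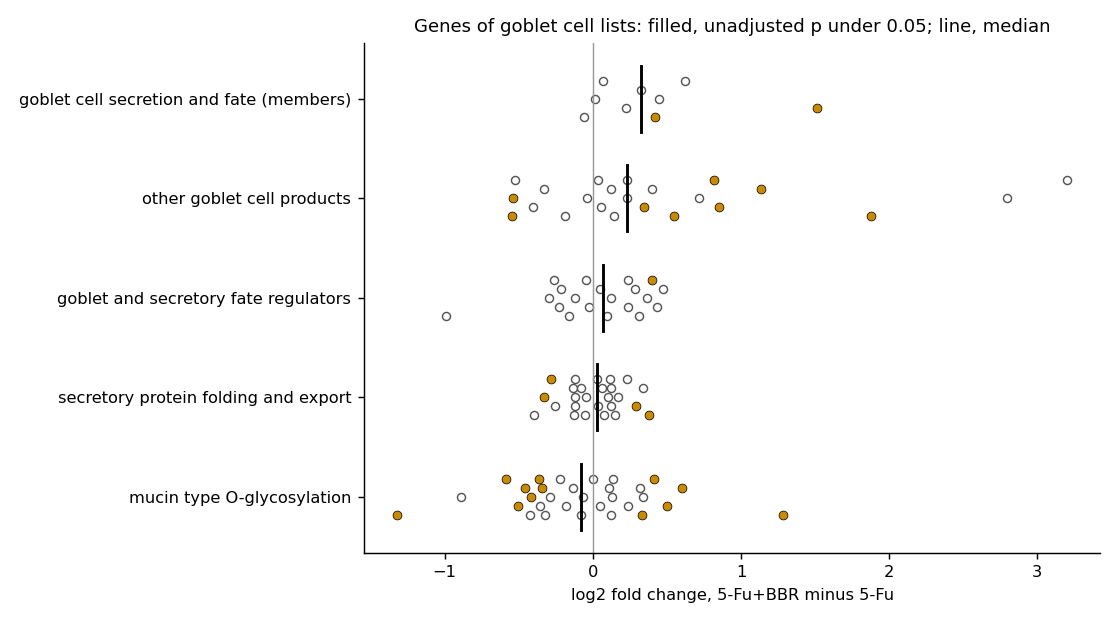
Log2 fold changes, 5-Fu+BBR minus 5-Fu (horizontal axis), of the genes tested in 5 lists of goblet cell biology (rows). Filled points have an unadjusted p under 0.05 and black lines mark list medians, which lie between -0.08 for mucin type O-glycosylation and 0.33 for the 9 genes.

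The enzymes that build mucin glycans, the pathway of St6galnac1, were split. Of the 31 tested, 14 were positive and 17 negative, with a median of -0.08 (0.0032 when scaled to epithelial markers, and between -0.15 and -0.02 when each library was left out). With edgeR 0 passed over all genes (1 without 5-Fu+BBR replicate 1). At an unadjusted p under 0.05 there were 5 higher and 7 lower, beside 9.48% and 6.08% of all genes. Fut2, the fucosyltransferase of secreted glycans, was at 594, 392 and 566 CPM in 5-Fu and at 309.9, 164 and 148 CPM in 5-Fu+BBR. Its groups did not overlap, beside 9.68% of all genes in the same direction. The log2 fold change of Fut2 was -1.32 ± 0.31 (adjusted p = 0.148 with edgeR). B4galnt3 and C1galt1, which adds the galactose of core 1 glycans, had values of -0.51 ± 0.12 and -0.42 ± 0.11. C1galt1 was at 249.1 ± 4.11 against 186 ± 13.9 CPM. St6galnac2, a relative of St6galnac1, was at 31.4, 30.8 and 41.5 against 48.5, 48.1 and 50.4 CPM (log2 fold change 0.50 ± 0.14, adjusted p = 0.162 with edgeR). The table holds a second row of that symbol, so its reads may be split.

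The libraries differed in other cell types beside the goblet cell genes. Total counts were between 53824752 and 63831168. Kidney markers, of which 14 of 15 could be tested, summed to between 75.1 and 91.2 CPM in 5-Fu and to 70.4, 255 and 250.9 CPM in 5-Fu+BBR. Kap was at 10.5 CPM or less in 5-Fu and reached 109 and 105 CPM in replicates 2 and 3 of 5-Fu+BBR, and Umod at 1.32, 14.6 and 12.5 CPM in 5-Fu+BBR. The list median of the kidney markers, relative to the 5-Fu mean on the log2 scale, was between -0.11 and 0.20 in 5-Fu and was 0.19, 3.19 and 3.16 in 5-Fu+BBR. With 5-Fu+BBR replicate 1 as the only library of its group, the log2 fold changes of Clca1 and Atoh1 were 1.22 and 0.63 (adjusted p = 0.808 and 0.719 with edgeR, the lone library being assumed to vary like the others). Smooth muscle markers, 12 of 12 tested, summed to between 3026 and 3952 CPM in 5-Fu and between 5404 and 6217 CPM in 5-Fu+BBR. Every tested marker of T and NK cells (11 of 11), of B and plasma cells (10 of 10) and of macrophages and mast cells (11 of 12) had a positive log2 fold change, with list medians of 1.23, 1.48 and 0.70. Epcam, an epithelial marker, had 0.12, and epithelial markers, 16 of 16, summed to between 19244 and 25040 CPM and between 18528 and 21978 CPM. Tuft cell markers had 8 positive and 2 negative log2 fold changes with a median of 0.65, beside 0.33 for the 9 goblet cell genes. Colonocyte markers had 9 and 5 (median 0.20), enteroendocrine markers 5 and 5 (-0.08), and markers of crypt stem and dividing cells 4 and 8 (-0.13). Of the neutrophil and inflammation genes, 10 of 11 could be tested, and 8 had negative and 2 positive log2 fold changes with a median of -1.62. They summed to between 345 and 516 CPM in 5-Fu and between 260.3 and 427 CPM in 5-Fu+BBR. Of 9 stomach markers 0 passed the filter on low counts. Of 10 pancreas acinar markers 2 could be tested, 1 with a positive and 1 with a negative log2 fold change. For colon position, 11 of 12 markers could be tested, 6 positive and 5 negative, with a median log2 fold change of 0.0075. Their list median relative to the 5-Fu mean, on the log2 scale, was 0.17, 0.34 and -0.65 in 5-Fu. In 5-Fu+BBR it was 0.12, -0.31 and 0.13. Beyond these values and the scaling to epithelial markers given above, the part of these differences in the goblet cell values was not tested.

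**Figure D5:**
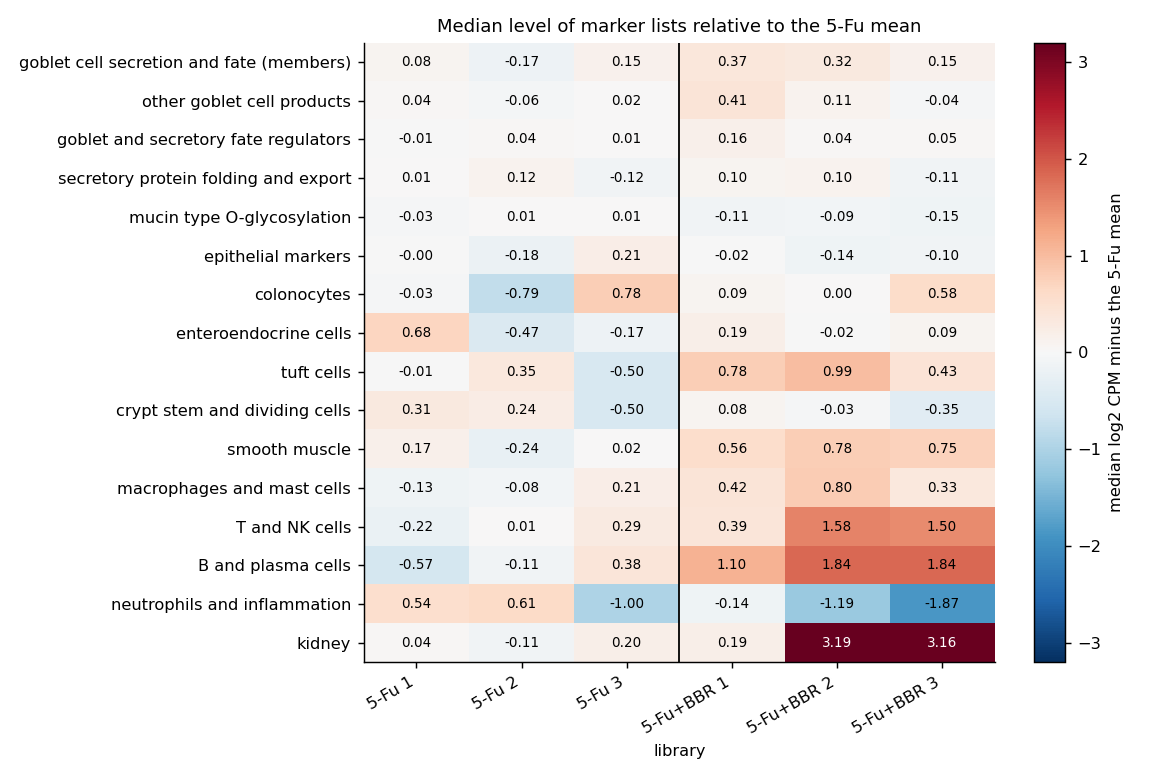
Median log2 CPM of the tested genes of 16 lists (rows) in each library (columns), relative to the mean of the 5-Fu libraries; the colour gives the printed value. The 9 goblet cell genes stay between -0.17 and 0.37, while kidney markers reach 3.19 and 3.16 in 5-Fu+BBR replicates 2 and 3.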

How the data were processed

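Per the labels' protocols, polyadenylated RNA from Trizol extracts was made into stranded libraries whose adapters carry molecular identifiers, and read in pairs of 150 bases. The submitters' processing notes list, with no role or order, the build GRCm38 and the tools HISAT2 2.0.4, StringTie 1.3.4d, cutadapt 1.9, UMI-tools, edgeR and DESeq2. The sources used here do not state the annotation. The authors deposited 1 table that gives each library's FPKM (fragments per kilobase, scaled to depth) and its estimated counts, rounded to whole numbers. Where a gene had 1 transcript and a count above 50, the count equalled FPKM times the reference transcript's length times a library constant, to within 2%, for 92.1% to 93.2% of genes, so these are estimates from coverage and not read counts. Coordinates are those of the deposited table, and a gene's value covers all its listed transcripts.

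The counts were used as deposited, with filterByExpr for low counts and TMM for scaling, in the robust quasi-likelihood test of edgeR 4.0.16 (R 4.3.3), two-sided, 5-Fu+BBR against 5-Fu, with Benjamini-Hochberg adjustment over 20101 genes. SE are the log2 fold change over the root of the F statistic. The steps were tested on simulated data. Tried besides were a fit with a replicate block, all genes unfiltered, at least 50 counts in 3 libraries, DESeq2 size factors, scaling to epithelial markers, DESeq2 1.42.0, limma 3.58.1 (voom, and trend on log2(FPKM + 1) or log2(FPKM + 0.1) for genes of at least 1 FPKM in 3 libraries), counts divided by 4, an adjusted p of 0.1, leaving out each library, 5-Fu+BBR replicate 1 alone and, chosen after seeing the data, edgeR's newer quasi-likelihood method. The genes, lists and alternatives were chosen with earlier results of these data known. Named besides the 9 genes were up to 4 genes of the smallest p and a mean of at least 1 FPKM from each goblet-related list, 10 genes of a like pattern with at least 5 FPKM, and Muc2, Klf4, Hes1, Ern2, Creb3l1, Foxa3, Epcam, Kap, Umod and Il13. The Clca relatives, Ang4, Itln1 and Mcpt1 were named after their values were seen. Other lists are given as sums, counts or medians. Correlations of the deviations of same-numbered libraries from their group means were 0.06, 0.02 and 0.11, so the numbers were not taken as pairs. No 2 libraries agreed within sampling noise (chi-square per gene of at least 75.3). Figures were drawn with Python 3.11.15 and matplotlib 3.10.9.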

Additional observations from a re-analysis of the deposited data

How the results depend on the processing

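Of the 162 log2 fold changes of the 9 genes under an alternative, 150 kept the sign given above, and 1 passed an adjusted p of 0.05, that of Clca1 with DESeq2. Clca1 stayed between 1.203 and 1.98 with adjusted p from 0.000337 to 0.808, and Atoh1 between 0.29 and 0.63 with adjusted p from 0.149 to 0.719. The number of the 9 genes passing was 0 otherwise and 1 with DESeq2. The number at an unadjusted p under 0.05 was 3 with the replicate block and 4 when scaled to epithelial markers. It lay between 2 and 4 when each library was left out, 4 being without 5-Fu replicate 3. The mean of the 9 genes relative to epithelial markers differed by 0.52 on the log2 scale and by between 0.37 and 0.63 when each library was left out.

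The sign turned for 4 genes. Retnlb was at -0.23 with the replicate block, -0.21 with limma-voom, -0.19 and -0.20 with limma-trend on log2(FPKM + 1) and log2(FPKM + 0.1), and -0.39 for 5-Fu+BBR replicate 1 alone. Spink4 was at 0.076 when scaled to epithelial markers. Leaving out each library gave ranges of -0.94 to 0.93 for Retnlb, -0.22 to 0.067 for Spink4, -0.16 to 0.14 for Spdef and -0.030 to 0.61 for Tff3. The cause was not tested.

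Over all genes, 15 passed. The number was 113 with the replicate block, 77 without a filter, 24 when scaled to epithelial markers, 1119 with DESeq2 and 144 at an adjusted p of 0.1. It lay between 0 and 159 when each library was left out: 0 without 5-Fu replicate 1 or 5-Fu+BBR replicate 2 (edgeR; 2062 and 1888 at an unadjusted p under 0.05), 159 without 5-Fu replicate 2, 53 and 54 without 5-Fu replicate 3 and 5-Fu+BBR replicate 1. For 5-Fu+BBR replicate 1 alone it was 0 (1331 unadjusted). The replicate block changed no call among the 9 genes, and not every library correlated best with its own number.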
